A study of Mus musculus with 12 samples.

Results

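Transcripts of 10 genes of Wnt signalling and of the intestinal stem cell programme were followed in sorted cells of the mouse jejunum. They were chosen by name and cover the ligands Wnt3 and Wnt9a, the R-spondin receptors Lgr4 and Lgr5, the feedback genes Axin2, Rnf43 and Znrf3, and the stem cell and crypt genes Olfm4, Ascl2 and Sox9. All 10 were found among the 39086 genes counted, and all 10 passed the filter on low counts that kept 17087 genes.

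The cells came from male C57BL/6N mice of genotype Neurog3eYFP/+, aged 12 weeks. Every mouse, those on the control diet included, carried the eYFP reporter at 1 allele of Neurog3, which sets gut progenitors on the endocrine path. The mice ate a normal diet (ND, Safe D04) throughout or were moved at 8 weeks of age to a high fat diet (HFD, D12492 from Research Diets) for 4 weeks. Villi were enriched with EDTA, dissociated with dispase and sorted into eYFP-positive enteroendocrine cells (EEC), which secrete the gut hormones, and eYFP-negative cells (non-EEC), a mixture of everything else in the preparation. Each of the 4 groups held 3 libraries. The labels give 3 mice per diet but do not tie libraries to mice, and p-values therefore reflect how libraries vary.

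Wnt ligands bind Frizzled receptors with Lrp5 or Lrp6 and keep beta-catenin from being degraded, and beta-catenin then acts with TCF/LEF factors on target genes. R-spondins strengthen the signal: when they bind Lgr4 or Lgr5, the ubiquitin ligases Rnf43 and Znrf3 no longer remove Frizzled from the cell surface. In the small intestine the signal is strongest at the crypt base, where it maintains Lgr5-positive stem cells, and Paneth cells there are a known source of Wnt3.

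The promoters of Wnt3 and Lgr4 are shown because these genes gave the clearest difference between populations and the call between diets. Both are RefSeq sequences on GRCm38.p6, printed 5′ to 3′ on the gene's strand up to the first annotated exon base, with CCAAT boxes (CCAAT or its reverse complement) in capitals.
Wnt3, chr11:103773925-103774149, plus strand: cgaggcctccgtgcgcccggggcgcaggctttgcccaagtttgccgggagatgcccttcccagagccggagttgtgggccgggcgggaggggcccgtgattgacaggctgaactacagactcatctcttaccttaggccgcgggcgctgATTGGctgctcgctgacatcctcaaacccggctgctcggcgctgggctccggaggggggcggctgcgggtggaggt
Lgr4, chr2:109917397-109917646, plus strand: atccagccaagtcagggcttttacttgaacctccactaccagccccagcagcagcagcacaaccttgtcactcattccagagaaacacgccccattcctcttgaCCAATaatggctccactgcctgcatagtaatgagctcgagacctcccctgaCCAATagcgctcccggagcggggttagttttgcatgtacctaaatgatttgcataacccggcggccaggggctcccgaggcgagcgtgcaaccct

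The Wnt3 stretch had 68.9% G and C, and the Lgr4 stretch 55.6%. A window was held for 7 of the 10 genes, all but Lgr5, Znrf3 and Sox9. The 250 bases before the RefSeq start were searched on both strands, except that TATA matches of these genes were kept only on the gene's strand. Rnf43 had 2 windows, and all 250 bases of the first lay in its own annotated exons. The Olfm4 window held 51 exon bases. A CCAAT box lay in the windows of 4 genes (Wnt3, Lgr4, Olfm4 and Ascl2) and in 33.8% of all 32851 windows of that length. The TCF/LEF core (CTTTGAT or CTTTGTT or CTTTGAA or CTTTGTA) was in none of the windows of these genes and in 14.8% of all windows. The E-box CAGATG and the TATA box TATAAA were in none of them either, against 14.4% and 12.4% of all windows. The TATA share of all windows counts both strands. A match here is a run of letters and not a binding site.

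Total counts per library ran from 9543183 to 29054281. Levels are given as counts scaled to library size (CPM) with TMM factors, and differences as log2 fold changes with the standard error of edgeR's fit. A gene was called at an adjusted p below 0.05 (edgeR quasi-likelihood test, Benjamini-Hochberg over the 17087 genes). The populations differed in endocrine markers: the summed CPM of 7 endocrine genes, led by Chgb and Chga, was 12013 to 68262 in EEC and 77.6 to 2458 in non-EEC. The 7 include Neurog3, the gene that carries the reporter. The non-EEC mixture differed between the diets. Summed CPM of 13 T cell genes, led by Gzma and Gzmb, was 13459 to 35513 in ND non-EEC and 111 to 1042 in HFD non-EEC, and that of 10 enterocyte genes, led by Fabp2 and Anpep, was 3133 to 18650 and 35535 to 79561. In EEC the T cell sum was 677 to 4957 under ND and 47.5 to 220 under HFD. EEC libraries also held enterocyte transcripts, with sums of 9803 to 15002 under ND and 8719 to 20536 under HFD. In EEC against non-EEC all 10 enterocyte genes had a positive difference under ND (median 0.67, 0 called). Under HFD all 10 had a negative one (median -2.40, 2 called). Mesenchymal genes, led by Dcn and Col3a1, summed to 1.59 to 14.7 in all 12 libraries. In such bulk samples fewer cells of a type and less RNA per cell cannot be told apart.

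**Figure D1:**
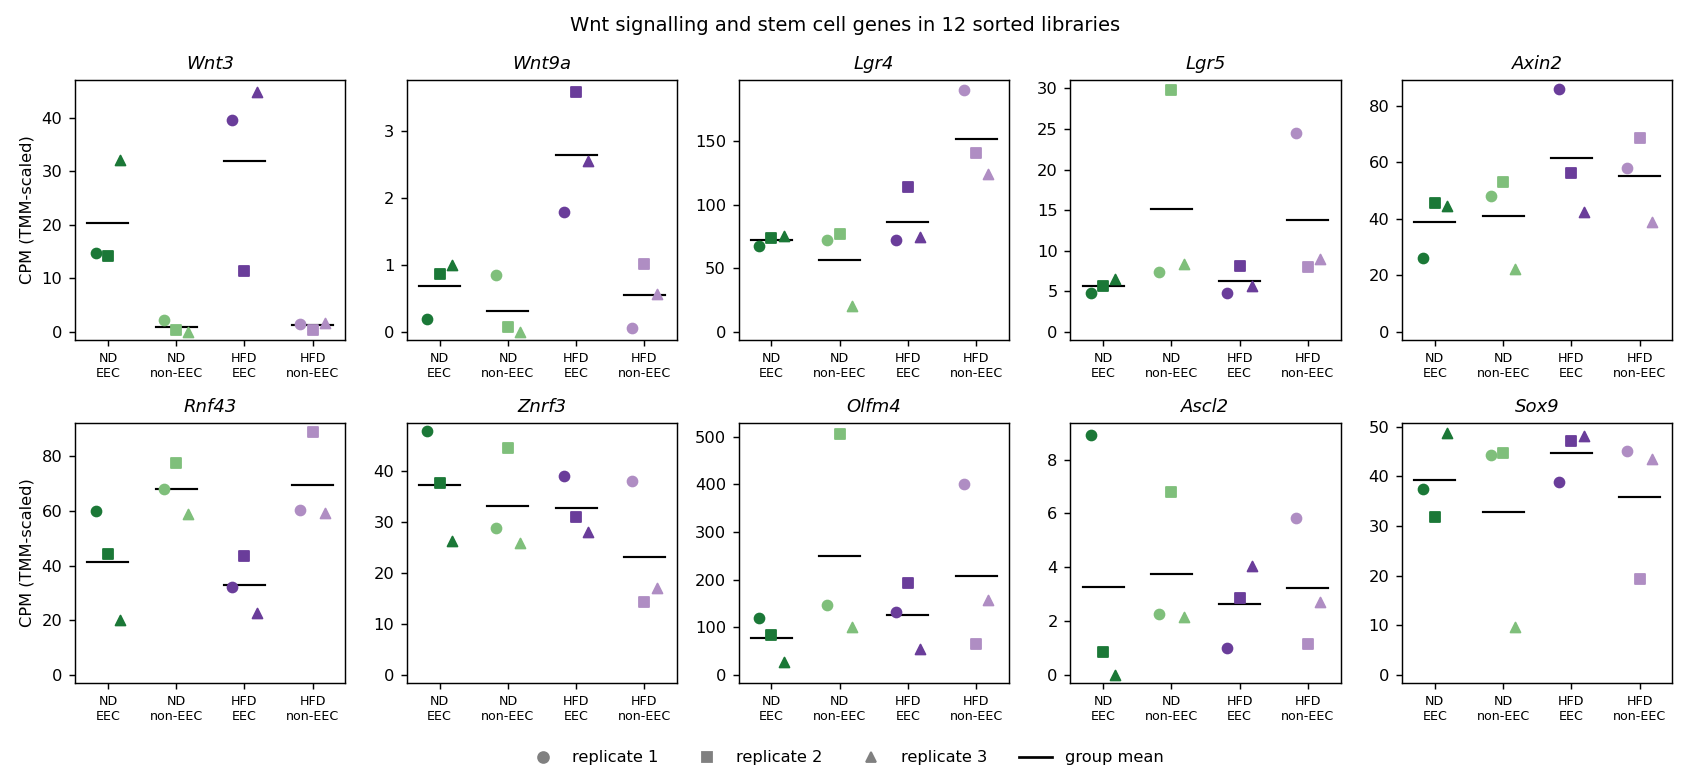
CPM (TMM-scaled, linear axis) of the 10 genes in each of the 12 libraries, by diet and sorted population; points are libraries, shaped by replicate, and bars are group means. Wnt3 separates EEC from non-EEC under both diets, HFD non-EEC libraries hold the 3 highest Lgr4 values, and 1 library in each non-EEC group stands above the others for Lgr5 and Olfm4.

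Wnt3 (chromosome 11, 103774150 to 103817957, plus strand, mm10) was the member with the clearest difference between the sorted populations. In ND EEC it had 14.8, 14.3 and 32.0 CPM in replicates 1, 2 and 3, and in HFD EEC 39.6, 11.5 and 44.9. In ND non-EEC it had 2.18, 0.353 and 0.0572 CPM, and in HFD non-EEC 1.56, 0.380 and 1.71. Every EEC library lay above every non-EEC library. The log2 fold change of EEC against non-EEC over both diets was 4.64 ± 0.69 (adjusted p = 0.000377), with 4.59 ± 0.98 under ND (adjusted p = 0.0102) and 4.68 ± 0.98 under HFD (adjusted p = 0.00667). The call held in all 19 alternative analyses over both diets, and in all 20 under each diet. The highest non-EEC value, 2.18 CPM, was in ND non-EEC replicate 1, the non-EEC library with the highest endocrine sum (2458 CPM). The next, 1.71 CPM in HFD non-EEC replicate 3, came with an endocrine sum of 260 CPM. ND non-EEC replicate 2 had 0.353 CPM at a sum of 263. The part of endocrine cells in the non-EEC values was not tested. The summed CPM of 11 Paneth cell genes, led by Lyz1 and Defa24, was 120 to 1535 in EEC and 145 to 5740 in non-EEC. None of the 11 was called by edgeR between the populations. Over both diets 0 had an unadjusted p below 0.05. Under ND 8 of 11 had a positive difference (median 0.77, 1 at an unadjusted p below 0.05), and under HFD 11 of 11 had a negative one (median -2.30, 5 at an unadjusted p below 0.05). The part of Paneth cells in the Wnt3 values was not tested.

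Wnt9a (chromosome 11, 59306928 to 59333552, plus strand), the other ligand, was close to the limit of detection. It had 0.188, 0.865 and 0.994 CPM in EEC under ND, 1.79, 3.58 and 2.55 in EEC under HFD, 0.855, 0.0707 and 0 in ND non-EEC and 0.0602, 1.01 and 0.568 in HFD non-EEC. The count of 0 in ND non-EEC replicate 3 allows up to 0.172 CPM (3 counts). The 3 HFD EEC libraries held the highest values of the 12, from 28 to 40 counts. Wnt9a passed the filter on low counts through EEC, the population where it was higher. None of the comparisons was called. EEC against non-EEC gave 1.75 ± 0.90 over both diets (adjusted p = 0.183), 1.19 ± 1.27 under ND (adjusted p = 0.577) and 2.31 ± 1.27 under HFD (adjusted p = 0.255).

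The receptor Lgr5 (chromosome 10, 115450311 to 115587780, minus strand), the stem cell marker, was lower in EEC over both diets. It had 4.78, 5.62 and 6.58 CPM in EEC under ND and 4.80, 8.14 and 5.70 under HFD. Non-EEC had 7.38, 29.8 and 8.41 CPM under ND and 24.5, 7.98 and 8.98 under HFD. The non-EEC values rested on 1 library of each diet, and the other 4 non-EEC libraries lay between 7.38 and 8.98, next to the highest EEC value of 8.14. The log2 fold change was -1.29 ± 0.43 (adjusted p = 0.0468). The same difference within a diet was not called: -1.42 ± 0.61 under ND (adjusted p = 0.142) and -1.16 ± 0.61 under HFD (adjusted p = 0.234). With 1 library left out the call over both diets held only without replicate 1 or 3 of ND non-EEC or replicate 2 of HFD non-EEC. Without any of the other 9 the adjusted p was 0.0521 to 0.177, and the fold change was -0.81 without the second ND library of non-EEC (replicate 2) and -0.96 without replicate 1 of HFD non-EEC. With same-numbered EEC and non-EEC libraries of a diet paired as a block, the fold change was -1.05 (adjusted p = 0.124, against 0.012 to 0.177 over all alternatives). The labels do not state that pairing.

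Lgr4 (chromosome 2, 109917647 to 110014257, plus strand), the R-spondin receptor that is expressed through the whole crypt, was not called between the populations. It had 67.5, 73.8 and 75.4 CPM in ND EEC, 72.6, 76.7 and 20.6 in ND non-EEC, 72.0, 113 and 74.3 in HFD EEC and 190, 141 and 124 in HFD non-EEC. EEC against non-EEC gave -0.23 ± 0.29 over both diets (adjusted p = 0.631), 0.35 ± 0.42 under ND (adjusted p = 0.628) and -0.81 ± 0.42 under HFD (adjusted p = 0.230). All 3 HFD non-EEC libraries lay above all other 9.

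Rnf43 (chromosome 11, 87662722 to 87735539, plus strand), the ubiquitin ligase that takes Frizzled off the cell surface, was lower in EEC over both diets. It had 59.9, 44.3 and 20.3 CPM in EEC under ND and 32.2, 43.5 and 22.9 under HFD, against 68.2, 77.5 and 58.9 in ND non-EEC and 60.3, 88.8 and 59.5 in HFD non-EEC. Only ND EEC replicate 1 reached the range of the non-EEC libraries. The log2 fold change was -0.90 ± 0.28 (adjusted p = 0.0336), with -0.72 ± 0.39 under ND (adjusted p = 0.250) and -1.08 ± 0.39 under HFD (adjusted p = 0.0869). With same-numbered EEC and non-EEC libraries paired as a block, Rnf43 was called lower under HFD as well (-1.10, adjusted p = 0.0435, against 0.0231 to 0.665 over all alternatives). The call over both diets held without replicate 1 of ND EEC, replicate 1 or 3 of ND non-EEC, replicate 2 of HFD EEC or replicate 1 of HFD non-EEC, and the adjusted p was 0.0506 to 0.0829 without any of the other 7.

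The other feedback genes showed no call between the populations. Axin2 (chromosome 11, 108920349 to 108950783, plus strand), a scaffold of the complex that degrades beta-catenin and a common readout of the pathway, had 26.2, 45.8 and 44.7 CPM in EEC under ND, 86.1, 56.1 and 42.3 in EEC under HFD, 48.1, 53.0 and 22.2 in ND non-EEC and 58.2, 68.6 and 39.0 in HFD non-EEC. Its difference over both diets was 0.04 ± 0.29 (adjusted p = 0.944). Znrf3 (chromosome 11, 5276324 to 5444847, minus strand), the ligase paired with Rnf43, had 47.8, 37.6 and 26.2 CPM in EEC under ND, 39.0, 31.1 and 28.1 in EEC under HFD, 28.8, 44.6 and 25.9 in ND non-EEC and 38.0, 14.3 and 17.1 in HFD non-EEC. Its difference was 0.33 ± 0.29 (adjusted p = 0.456). The libraries of the 2 populations overlapped for both genes. Exons of Axin2 share 209 bases with the antisense gene Gm11670, and counts from the 2 genes may be mixed.

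Olfm4 (chromosome 14, 79984081 to 80023139, plus strand), a secreted glycoprotein of crypt base cells, had the highest level per exon length of the 10 genes in all 4 groups. It had 119, 84.8 and 28.0 CPM in EEC under ND, 132, 193 and 55.8 in EEC under HFD, 147, 505 and 100 in ND non-EEC and 402, 64.7 and 158 in HFD non-EEC. The 2 highest libraries were the same as for Lgr5. EEC against non-EEC gave -1.21 ± 0.54 over both diets (adjusted p = 0.130), -1.70 ± 0.77 under ND (adjusted p = 0.164) and -0.71 ± 0.75 under HFD (adjusted p = 0.605). Exons of Olfm4 share 153 bases with Gm6999 on the same strand, so part of its count is uncertain.

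Ascl2 (chromosome 7, 142966829 to 142969264, minus strand), a transcription factor of the stem cell programme, was low and scattered, with 8.91, 0.865 and 0 CPM in EEC under ND, 1.02, 2.86 and 4.05 in EEC under HFD, 2.25, 6.78 and 2.17 in ND non-EEC and 5.84, 1.14 and 2.73 in HFD non-EEC. The count of 0 in ND EEC replicate 3 allows up to 0.0932 CPM. Sox9 (chromosome 11, 112782224 to 112787760, plus strand), a transcription factor of crypt and secretory cells, had 37.4, 31.7 and 48.8 CPM in EEC under ND, 38.8, 47.2 and 48.1 in EEC under HFD, 44.3, 44.8 and 9.72 in ND non-EEC and 45.1, 19.4 and 43.4 in HFD non-EEC. EEC values of Sox9 kept to a narrow range, and 2 non-EEC libraries lay well below it. Over both diets Ascl2 differed by -0.26 ± 0.92 (adjusted p = 0.874) and Sox9 by 0.28 ± 0.35 (adjusted p = 0.610). Neither was called in any comparison.

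In the counts over both diets, 3 of the 10 genes were called, 1 higher (Wnt3) and 2 lower (Lgr5 and Rnf43) in EEC, where 21.6% of all genes tested were called, 13.8% higher and 7.8% lower. The libraries of the populations did not overlap for 1 of the 10, Wnt3, as for 9.17% of all genes. Under ND 1 of 10 was called, Wnt3, against 12.8% of all genes (7.91% higher and 4.9% lower). The ND libraries did not overlap for 2 of 10, Wnt3 and Lgr5, as for 32.5% of all genes. Under HFD 1 of 10 was called, Wnt3, against 14% of all genes (10.2% higher and 3.77% lower). The HFD libraries did not overlap for 4 of 10, with Wnt3 and Wnt9a above and Lgr4 and Rnf43 below in EEC, as for 35.8% of all genes. Wnt9a passed the filter through EEC, so its lack of overlap is not read as support. With only 10 genes, no departure from the shares of all genes is read from these counts. Scaling to 8 general epithelial genes, described with the diet comparisons, turned the split of all genes from 1351 higher and 838 lower to 927 and 1065 under ND, and from 1748 and 645 to 1524 and 86 under HFD.

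**Figure D2:**
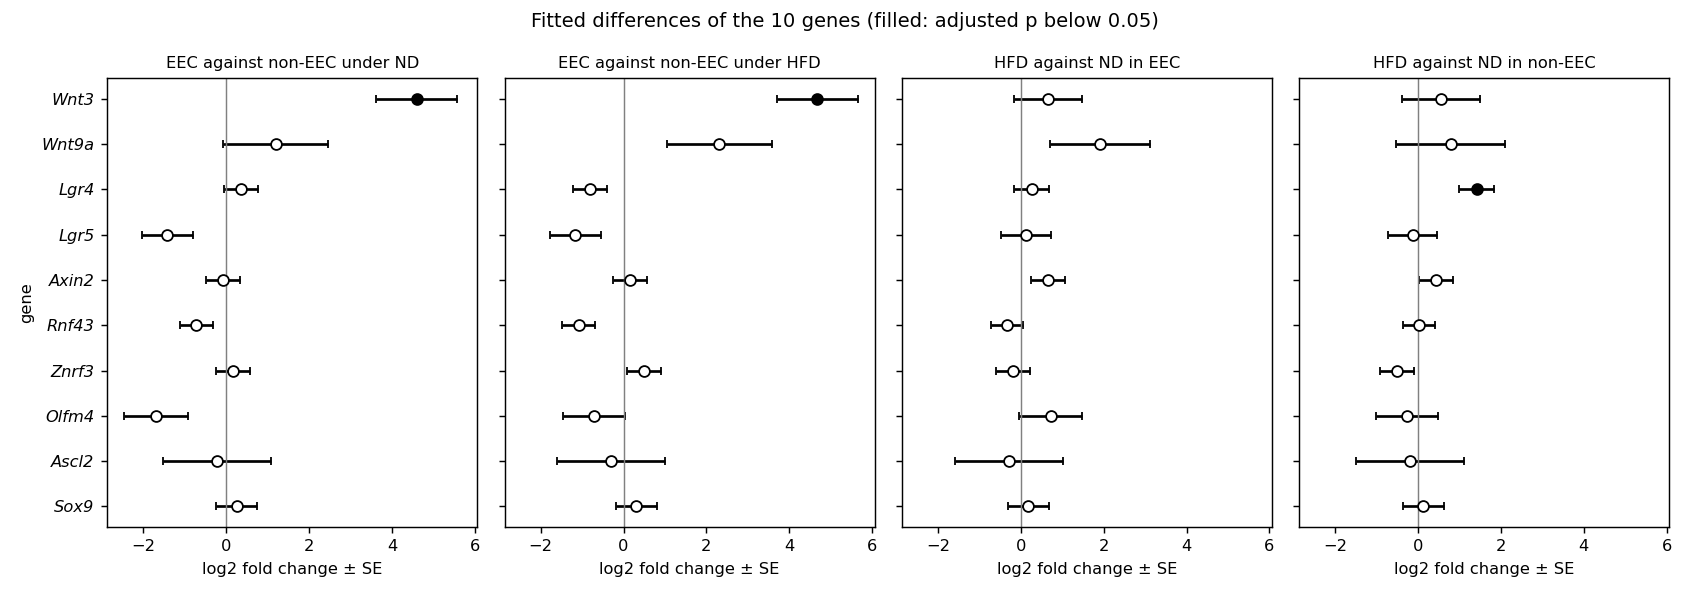
Log2 fold change ± SE (edgeR fit) of each gene in the comparisons of EEC with non-EEC under each diet and of HFD with ND in each population; filled points have an adjusted p below 0.05. The filled points are Wnt3 in EEC against non-EEC under both diets (4.59 and 4.68) and Lgr4 in HFD against ND in non-EEC (1.42).

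Per kilobase of exon, the level of Olfm4 averaged 26.1 to 84.6 CPM over the 4 groups and that of Lgr4 9.62 to 25.7 CPM. In ND EEC the levels after Olfm4 (26.1 ± 15.5 CPM per kilobase, SD, n = 3) were Lgr4 (12.3 ± 0.715), Sox9 (9.51 ± 2.102), Axin2 (7.06 ± 2.002), Wnt3 (6.63 ± 3.29), Rnf43 (6.32 ± 3.04), Znrf3 (4.71 ± 1.37), Ascl2 (2.01 ± 3.03), Lgr5 (0.552 ± 0.0877) and Wnt9a (0.205 ± 0.130). Every neighbouring pair in that order, except Lgr5 and Wnt9a, lay within the sum of its SDs. In ND non-EEC Wnt3 averaged 0.280 ± 0.373 CPM per kilobase, below Lgr5 at 1.48 ± 1.23, and in HFD non-EEC 0.395 ± 0.237 against 1.35 ± 0.902. Wnt3 thus lay above Lgr5 in mean level in both EEC groups and below it in both non-EEC groups.

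The pair of libraries high in Lgr5 and Olfm4 was also high in Slc12a2 and in division genes. Ascl2 was 6.78 and 5.84 CPM in the pair and 1.14 to 2.73 in the other non-EEC libraries. Its highest value, 8.91 CPM, was in ND EEC replicate 1. Sox9 was 44.8 and 45.1 CPM in the pair, 9.72 to 44.3 in the other non-EEC libraries and up to 48.8 in EEC. ND non-EEC replicate 2 and HFD non-EEC replicate 1 had 245 and 294 CPM of Slc12a2, an ion transporter of crypt cells, and 358 and 650 CPM of Mki67, a marker of dividing cells. The other 10 libraries had 54.8 to 194 CPM of Slc12a2 and 85.1 to 351 CPM of Mki67, the latter in HFD EEC replicate 2. The summed CPM of 10 cell cycle genes, led by Mki67 and Top2a, was 843 and 1394 in the pair and 215 to 762 in the others. HFD EEC replicate 2, with 762, was also the EEC library with the highest Lgr5 and Olfm4. In EEC against non-EEC over both diets 4 of 10 cell cycle genes were called lower and 0 higher. The part of dividing crypt cells in the Lgr5 and Olfm4 values was not tested.

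**Figure D3:**
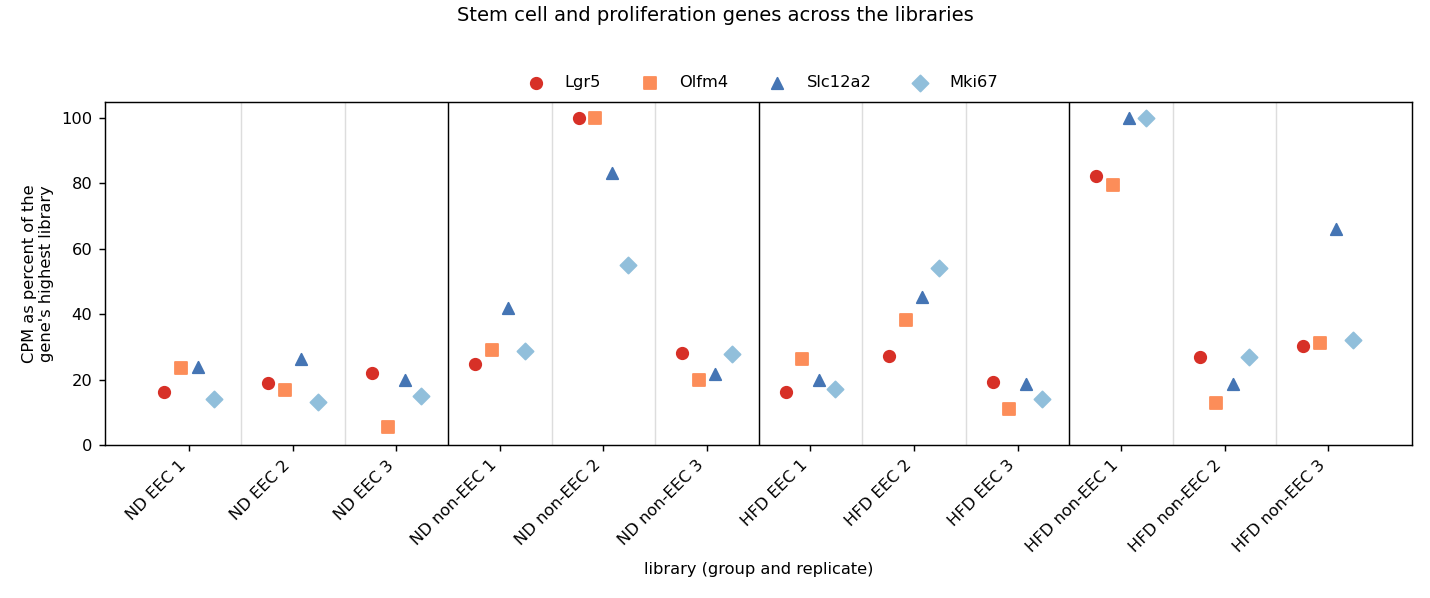
CPM of Lgr5, Olfm4, Slc12a2 and Mki67 in each library as a percent of that gene's highest library (linear axis, libraries ordered by group and replicate). ND non-EEC replicate 2 and HFD non-EEC replicate 1 hold the 2 highest values of all 4 genes.

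Diet was then compared within each population. In EEC none of the 10 genes was called by edgeR, and 0 had an unadjusted p below 0.05. Of all genes 0% were called, and 1613 had an unadjusted p below 0.05. That count depended on the analysis: DESeq2 called 143 higher and 322 lower, and limma-voom called 7 higher and 1 lower. Even edgeR called 35 higher and 235 lower with no filter on low counts. It called 6 and 200 with epithelial gene scaling, and up to 11 and 206 with 1 library left out (ND EEC replicate 3). Wnt9a differed by 1.91 ± 1.21 (adjusted p = 0.701), Axin2 by 0.66 ± 0.41 (adjusted p = 0.687) and Wnt3 by 0.65 ± 0.82 (adjusted p = 0.896). For 1 of the 10, Wnt9a, all HFD EEC libraries lay above all ND EEC libraries, and 15% of all genes showed no overlap. The HFD EEC libraries were among those that carried Wnt9a past the filter, and nothing is read from this.

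In non-EEC 1 of the 10 genes was called, Lgr4, which was higher under HFD by 1.42 ± 0.42 (adjusted p = 0.0400), where 14.9% of all genes were called, 5.76% higher and 9.15% lower. It was also the only 1 of the 10 whose libraries did not overlap between the diets, as for 35.3% of all genes. Rnf43 differed by 0.03 ± 0.39 (adjusted p = 0.976), Znrf3 by -0.51 ± 0.41 (adjusted p = 0.435) and Olfm4 by -0.27 ± 0.75 (adjusted p = 0.851). The Lgr4 call held without replicate 2 or 3 of ND EEC, replicate 1 of ND non-EEC or replicate 2 of HFD EEC, and the adjusted p was 0.0535 to 0.118 without any of the other 8. In the 6 non-EEC libraries alone it was 1.44 (adjusted p = 0.0854, against 0.00756 to 0.947 over all alternatives).

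The makeup of the non-EEC libraries moved with the same comparison. All 13 T cell genes were called lower under HFD. All 10 enterocyte genes had a positive difference, and 7 of the 10 were called higher. The Paneth cell sum was 145 to 1242 CPM under ND and 1340 to 5740 under HFD, with 0 of 11 genes called and 9 at an unadjusted p below 0.05. ND non-EEC replicate 3, with the highest T cell sum (35513 CPM), had the lowest Lgr4 (20.6 CPM) and Sox9 (9.72 CPM) of the 12 libraries, and also the lowest sum of 8 general epithelial genes (1286 CPM, against 2423 to 8762 in the other 11). When libraries were scaled to those epithelial genes in place of TMM factors, the median log2 change of all genes in non-EEC moved from -0.10 to -1.91, and the calls from 985 higher and 1564 lower to 157 and 8218. On that scale Lgr4 differed by -0.05 (adjusted p = 0.947), which was 1.86 above the median of all genes, and Znrf3, Rnf43 and Olfm4 were called lower (-2.30, -1.79 and -1.97). The part of the T cells in the Lgr4 difference was not tested beyond that scaling.

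The difference between the diet effects in EEC and non-EEC was called for 0 of the 10 genes by edgeR, with 0 at an unadjusted p below 0.05, and for 0.497% of all genes, 0.451% positive and 0.0468% negative. That count depended on the analysis: edgeR had 77 positive and 8 negative, DESeq2 602 and 470 and limma-voom 963 and 1220, while with 1 library left out edgeR ran from 0 calls (replicate 2 of either ND group, replicate 1 or 3 of HFD EEC or replicate 3 of HFD non-EEC) to 464 and 807 (replicate 1 of ND non-EEC). For Lgr4 it was -1.16 ± 0.59 (adjusted p = 0.348). A diet response of Lgr4 that differs between the populations was therefore not shown.

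**Figure D4:**
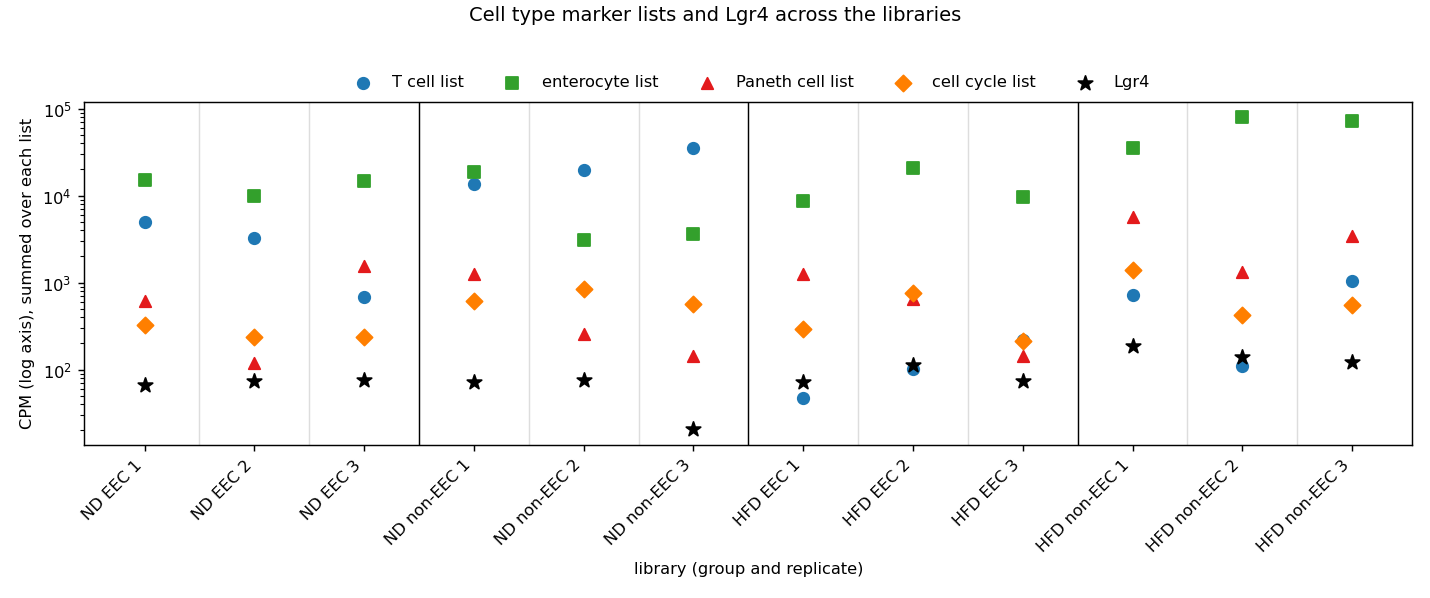
Summed CPM of the T cell, enterocyte, Paneth cell and cell cycle gene lists and CPM of Lgr4 in each library (log axis). T cell sums fall from 13459 to 35513 in ND non-EEC to 111 to 1042 in HFD non-EEC, where enterocyte sums and Lgr4 are at their highest.

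The wider pathway was described with 102 other Wnt and stem cell genes, of which 75 passed the filter and 1, Wnt7a, had no count in any library. In EEC against non-EEC over both diets 23 of the 75 were higher (30.7%, against 13.8% of all genes) and 5 lower (6.67%, against 7.8%), with a median log2 difference of 0.30 against -0.05 for all genes tested. The lists were chosen with earlier results of these data known. Genes near 0 in non-EEC, such as Frzb, could pass the filter only through EEC. No excess over all genes is therefore read from these shares. Among the 5 other ligands tested, 1 was higher in EEC. Wnt9b had 0, 1.47 and 0.963 CPM in EEC under ND and 6.15, 0.537 and 2.33 under HFD, against at most 0.353 in non-EEC, with a log2 fold change of 4.42 ± 1.19 (adjusted p = 0.0137). Of the R-spondins only Rspo4 passed the filter, and it was higher in EEC by 4.15 ± 1.04 (adjusted p = 0.0109), at 0.248 to 9.61 CPM against at most 0.848. Both Wnt9b and Rspo4 passed the filter through EEC, the group where they were high. Rspo4 had 72 and 266 counts over ND and HFD EEC, against 15 and 3 over ND and HFD non-EEC. Wnt9b had 48 and 133 against 6 and 1. Neither secretion gene was called: Porcn, the enzyme that attaches a lipid to Wnt proteins, differed by 2.18 ± 0.76 (adjusted p = 0.0565) and Wls, their carrier to the surface, by 0.05 ± 0.35 (adjusted p = 0.942).

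Of 13 receptors 7 were higher in EEC and 1 was lower. Ror2, a receptor of beta-catenin-independent Wnt signalling, had 9.38 to 20.8 CPM in EEC and 0.343 to 5.53 in non-EEC (3.40 ± 0.41, adjusted p = 7.45e-05). Fzd3 (4.26 ± 0.64), Fzd1 (2.76 ± 0.50) and Ror1 (4.70 ± 0.94) were higher too, as were Fzd2, Fzd6 and Fzd8, while Fzd5 was lower (-1.12 ± 0.37, adjusted p = 0.0465); the last 4 are named after their values were seen. With 1 library left out, the Fzd5 call held only without replicate 3 of ND non-EEC or replicate 2 of HFD EEC (adjusted p up to 0.115 otherwise), and the Fzd8 call only without ND EEC replicate 1 (up to 0.141). The Fzd2 call was lost without replicate 2 of ND non-EEC, replicate 1 or 3 of HFD EEC or replicate 2 or 3 of HFD non-EEC (up to 0.0649).

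Of 8 inhibitors of the pathway 3 were higher in EEC and none lower. Sfrp5, a decoy that binds Wnt proteins, had 42.3, 18.1 and 21.8 CPM in EEC under ND and 28.1, 6.80 and 24.9 under HFD, against 0.887 to 2.02 in the 6 non-EEC libraries (4.05 ± 0.44, adjusted p = 4.05e-05). Wif1, another Wnt-binding inhibitor, had 0.844, 6.23 and 6.37 CPM in EEC under ND and 32.6, 18.6 and 32.0 under HFD, against at most 0.919 in non-EEC (5.52 ± 0.89, adjusted p = 0.000617). Frzb, of the same family as Sfrp5, had 3.28, 6.57 and 9.04 CPM in EEC under ND and 5.76, 3.49 and 14.4 under HFD (adjusted p = 5.06e-05). It had 1 count over the 3 ND non-EEC libraries and 0 over the 3 HFD non-EEC libraries. Under HFD it was at least 87.6-fold higher in EEC, taking 3 counts over the group as the floor. Both Wif1 and Frzb passed the filter through EEC, the population where they were high. Wif1 had 286 and 1144 counts over ND and HFD EEC, against 23 and 3 over ND and HFD non-EEC.

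**Figure D5:**
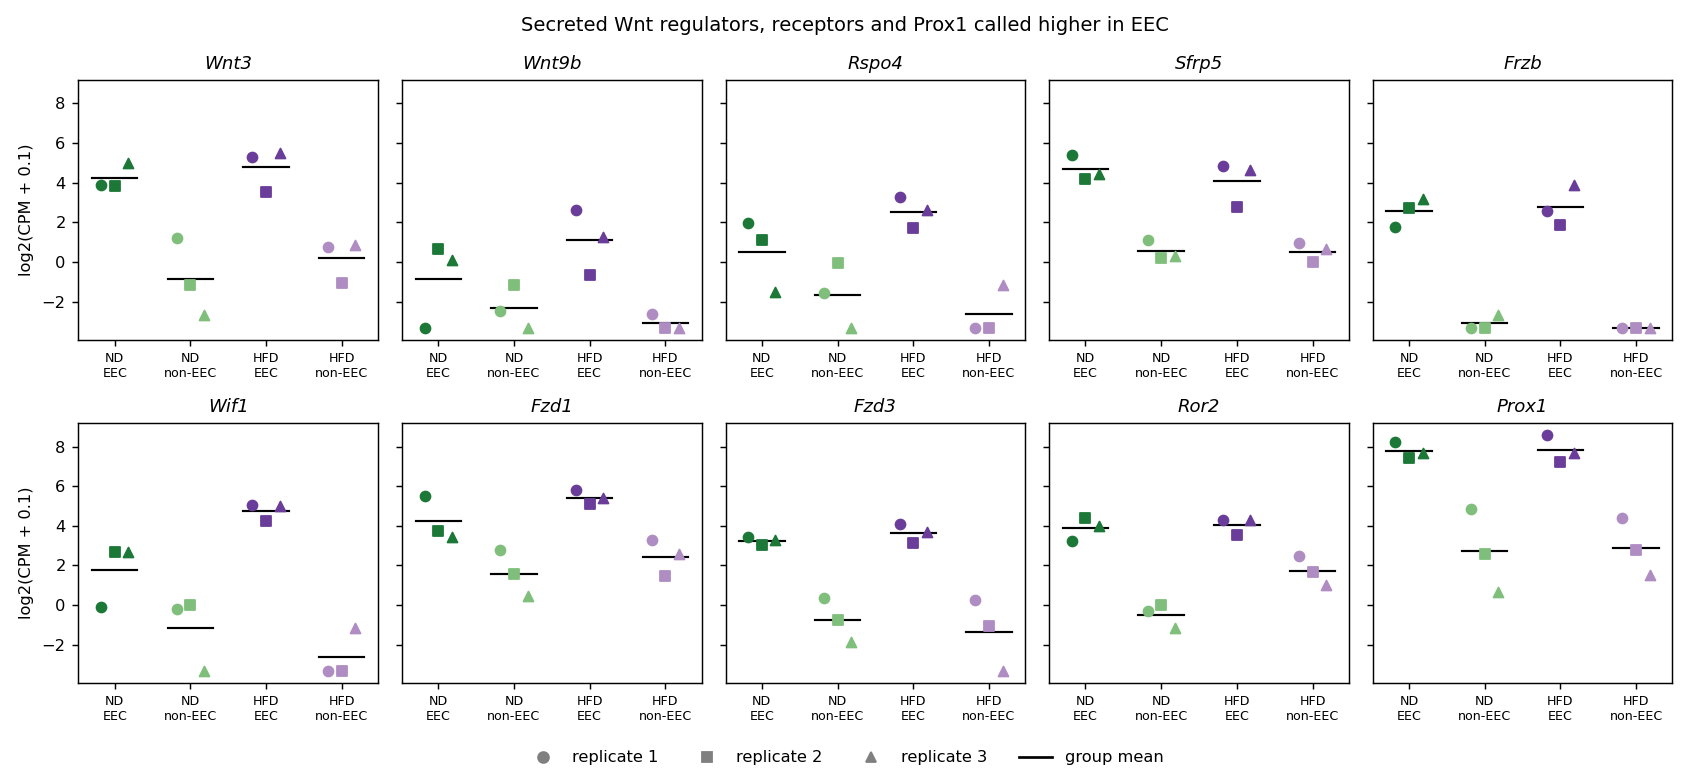
Log2(CPM + 0.1) of Wnt3 and of 9 other pathway genes called higher in EEC over both diets, by library; points are libraries and bars are means of the plotted values. Wnt3, Sfrp5, Frzb, Fzd1, Fzd3, Ror2 and Prox1 lie higher in every EEC library than in every non-EEC library, whereas Wnt9b, Rspo4 and Wif1 overlap between the populations under ND.

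Of 13 genes of signal transduction 2 were higher, Btrc (0.89 ± 0.23, adjusted p = 0.363 with epithelial gene scaling), which marks beta-catenin for degradation, and Amer1 (0.68 ± 0.22), and with 1 library left out Amer1 kept its call only without ND EEC replicate 3 (adjusted p up to 0.107 otherwise). Of 11 nuclear factors 2 were higher, the corepressor Tle2 (3.69 ± 0.49) and the coactivator Bcl9 (1.42 ± 0.34), and 3 were lower, Tle4 (-1.22 ± 0.28), Tcf7 (-1.80 ± 0.44) and Tcf7l1, the last named after its values were seen. Tcf7 encodes a factor that T cells also express. Its level was 47.9 to 109 CPM in ND non-EEC, where the T cell sum was highest, and 5.07 to 16.7 in HFD non-EEC. The part of T cells in the Tcf7 difference was not tested. Tcf7l1 was at most 0.192 CPM in EEC and 1.41 to 3.34 in ND non-EEC, the group through which it passed the filter. Its call was lost without replicate 3 of either EEC group or replicate 1 of HFD non-EEC (adjusted p up to 0.950).

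Of 8 other target genes 3 were higher in EEC and 1 was lower. Prox1, a transcription factor of endocrine cells as well as a Wnt target, had 147 to 387 CPM in EEC and 1.49 to 28.9 in non-EEC (4.41 ± 0.68, adjusted p = 0.000495). Ephb3 (2.29 ± 0.48) and Cd44 (1.71 ± 0.32) were also higher, and the cyclin gene Ccnd1 was lower (-1.32 ± 0.40, adjusted p = 0.0320), a call that held only without replicate 2 of either EEC group, replicate 3 of ND non-EEC or replicate 2 or 3 of HFD non-EEC (adjusted p up to 0.0845 otherwise). Of 14 other stem cell genes 4 were higher: Hopx (2.01 ± 0.28), Msi1 (2.55 ± 0.44), Prom1 (1.67 ± 0.33) and Bmi1 (1.26 ± 0.31, adjusted p = 0.203 with epithelial gene scaling). Hopx had 97.8 to 254 CPM in EEC and 29.5 to 50.6 in non-EEC. None of the 14 was called lower over both diets, though 7 of the 14 had a negative difference (median 0.06).

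Within each diet fewer of the 75 were called, 15 higher and 4 lower under ND and 17 higher and 1 lower under HFD. Under ND these were 20% higher and 5.33% lower, against 7.91% and 4.9% of all genes, and under HFD 22.7% and 1.33%, against 10.2% and 3.77%. As over both diets, no excess over all genes is read from these shares. Ror2, Sfrp5, Frzb, Fzd1, Fzd3, Ror1, Tle2, Prox1, Msi1, Hopx and Prom1 were higher under both diets. Of these, only Sfrp5 and Frzb kept both calls in all 12 runs with 1 library left out. Prom1 kept its HFD call in 3 of 12 (adjusted p up to 0.191). Tle2 and Ror1 kept their ND calls in 7 of 12 (up to 0.102 and 0.112). Those called lower under ND were Tcf7, Tcf7l1, Myc and Ly6a, and under HFD Tle4. In the lists with no call under ND, the genes with the smallest p were Wnt2b, Wnt5a, Wls, Porcn, Rspo4, Tnks and Amer1 (adjusted p = 0.185 to 0.600), and under HFD Porcn and Wls (0.0598 and 0.222). Without replicate 3 of ND EEC, or replicate 2 or 3 of ND non-EEC, the ND count fell from 19 to 11, 8 and 8. Without replicate 1 of HFD EEC, or replicate 2 or 3 of HFD non-EEC, the HFD count fell from 18 to 9, 11 and 11. With epithelial gene scaling the ND calls were 6 higher and 4 lower.

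In EEC none of the 75 was called between the diets by edgeR, with 1 at an unadjusted p below 0.05, Wif1 (2.62 ± 0.99, adjusted p = 0.400). The others with the smallest p in their lists were Wnt5a, Wnt5b, Porcn, Wls, Lrp5, Fzd5, Rspo4, Dkk3, Amer1, Csnk1a1, Tcf7, Tcf7l2, Ccnd1, Sp5, Clu and Rgmb, with adjusted p = 0.539 to 0.963. In non-EEC 5 were higher and 7 lower under HFD, and these shares (6.67% and 9.33%) are near those of all genes (5.76% and 9.15%). The beta-catenin gene Ctnnb1 (1.10 ± 0.31), the co-receptor Lrp6 (1.40 ± 0.34), Ror2 (2.43 ± 0.58), the corepressor Tle1 (2.13 ± 0.47) and the target Sp5 (3.40 ± 0.88) were higher. Wls (-2.01 ± 0.51), Btrc (-1.16 ± 0.32), Tcf7 (-2.76 ± 0.64), Tle2 (-2.92 ± 0.71), Tle3 (-1.17 ± 0.33), Cd44 (-1.85 ± 0.46) and Ly6a (-3.83 ± 0.74) were lower. In the lists with no call, Wnt2b, Wnt9b, Rspo4, Dkk3 and Wif1 had adjusted p = 0.230 to 0.502. Lrp6 had 143, 145 and 67.5 CPM in ND non-EEC and 348, 289 and 299 in HFD non-EEC, so the groups did not overlap. Ly6a and Cd44 are also expressed by T cells, whose 13 genes all fell in this comparison. The part of T cells in the changes of these genes was not tested. With epithelial gene scaling 0 were called higher and 27 lower, and Ctnnb1 (-0.66) and Lrp6 (-0.21) changed sign. Without replicate 2 or 3 of ND non-EEC, or replicate 2 or 3 of HFD non-EEC, the count of 12 fell to 4, 2, 5 and 5. The difference of diet effects was called for 0 of the 75 by edgeR, with 14 at an unadjusted p below 0.05, while DESeq2 called 6 and limma-voom 10. The smallest adjusted p was that of Ly6a (0.0826), followed by Lrp6 (0.105), Sp5 (0.113), Ror2 (0.164), Wif1 (0.170) and Tle2 (0.172). Without ND non-EEC replicate 1 edgeR called 5.

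The genes whose log2 CPM over the 12 libraries was closest to each member, by the root mean square difference after centring, were as follows. For Wnt3 they were Rgs17 and Plcxd3 (0.57 and 0.57 log2 units, where Wnt3 itself had an SD of 2.75), both far higher in EEC than in non-EEC (40.5 against 2.101 CPM and 27.95 against 0.832). For Lgr4 they were Mal2 and Cask (0.23 and 0.24, SD 0.75), for Lgr5 Mcm8 and Mbnl3 (0.38 and 0.40, SD 0.80) and for Olfm4 Pole and Kntc1 (0.41 and 0.56, SD 1.11). Mcm8, Pole and Kntc1 act in DNA replication, repair or mitosis, and Mbnl3 is not counted with them. The part of dividing cells in these likenesses was not tested. For Axin2 they were Cog7 and Ints12, for Rnf43 Ccdc93 and Aff1, for Znrf3 Ercc6l2 and Inpp5f and for Sox9 Kcnq1 and Ifitm2, at 0.19 to 0.40. For the sparse Wnt9a (Prss30 and Mical3) and Ascl2 (Top1mt and Itga5) the differences were 0.67 to 0.88. All such values share the libraries and their scaling and are a description of these 12 libraries.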

How the data were processed

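The authors deposited 1 table of counts, whole numbers per Ensembl gene in 12 library columns. Tools in the submitters' processing notes were HTSeq 0.5.4p3, Bowtie2 2.1.0, TopHat2 2.0.10 and CASAVA 1.8.2, with build mm10. The annotation release, the strandedness and how HTSeq treated overlaps were not given in the sources used here. Per the labels' protocols, the Ovation RNA-Seq System V2 made the cDNA. Symbols, positions and exon lengths came from GENCODE vM21, matching 37607 of 39086 identifiers (96.2%).

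Counts were filtered with filterByExpr (17087 genes), TMM-scaled and fitted as 4 group means over 12 libraries (8 residual degrees of freedom) with edgeR 4.0.16 in R 4.3.3. The common biological coefficient of variation was 0.536. Alternatives used DESeq2 1.42.0, limma 3.58.1 (voom with quality weights), RLE factors, other filters, the 6 libraries compared, a replicate block, each library left out and, chosen after seeing the data, scaling to 8 epithelial genes. The replicate block paired same-numbered EEC and non-EEC libraries within a diet, which the labels do not state. For HFD against ND within a population it was the replicate number. Scripts were tested on simulated data. The members and lists were chosen with earlier results of these data known. Named genes were the members, per list up to 4 called genes with the smallest adjusted p (or 2 with the smallest p), the 2 most abundant genes of each cell type list, and 2 similar genes per member of at least 1 CPM.

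Same-numbered EEC and non-EEC libraries deviated together under HFD (correlations 0.224, 0.225 and 0.213), though the labels do not state a pairing. Under ND they were 0.135, 0.216 and -0.0144. Same-numbered libraries of different diets, which cannot share a mouse, had 0.167, 0.122 and 0.0102 in EEC and -0.0821, -0.102 and 0.214 in non-EEC. No pairing by mouse is read from these correlations.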

Additional observations from a re-analysis of the deposited data

How the results depend on the processing

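Wnt3 in EEC against non-EEC kept its direction and call under every alternative tried. The members called over both diets (3) were 6 with limma-voom, 1 with epithelial gene scaling and 1 to 4 with 1 library left out. Under ND (1) they were 6 with limma-voom. Under HFD (1) they were 2 with DESeq2, 3 with limma-voom, 2 in the 6 libraries compared, 2 with the replicate block and 1 to 2 with 1 library left out. For HFD against ND in non-EEC (1) they were 2 with limma-voom, 0 in the 6 libraries compared, 3 with epithelial gene scaling and 0 to 1 with 1 library left out. The replicate block changed no other count of members by over 1.5 times.

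Signs changed in 23 of 585 runs of the fold changes given above, and in 69 of 588 runs of the other 30 member fold changes. With 1 library left out, Axin2 over both diets ran from -0.12 to 0.17, Ascl2 over both diets from -1.82 to 0.12, Lgr4 under ND from -0.00070 to 0.68, Olfm4 under HFD from -1.15 to 0.16, and in non-EEC between the diets Rnf43 from -0.19 to 0.14 and Olfm4 from -1.23 to 0.78. In the same comparison Rnf43 was -0.028 with no filter, -0.055 with the filter of 5 CPM, -0.18 with limma-voom and -1.79 with epithelial gene scaling. That scaling also gave -0.051 for Lgr4 in non-EEC, and -0.16 for Wnt3 and -0.27 for Axin2 between the diets in EEC. It moved the median of all genes from -0.05 to -0.15 over both diets, from -0.02 to -0.62 under ND, from 0.00 to 0.42 under HFD and from 0.00 to -0.80 between the diets in EEC, so Wnt3 there lay 0.64 above that median. Wnt9a did not pass the 5 CPM filter and has no value under it. For the other pathway genes over both diets, 22 of 28 calls held in every run without 1 library, and 20 of 28 under every alternative. Far fewer held in the other comparisons: 3 of 19 under ND, 9 of 18 under HFD and 1 of 12 between the diets in non-EEC. Those 3 counts were the same for runs without 1 library and for every alternative. Calls over all genes, higher and lower, also moved: over both diets from 2353 and 1332 to 3072 and 2484 with limma-voom; under ND from 1351 and 838 to 2067 and 1558 with DESeq2, 2719 and 2421 with limma-voom and 732 and 425 in the 6 libraries compared; under HFD from 1748 and 645 to 2254 and 1499 with DESeq2 and 2577 and 1808 with limma-voom. In non-EEC between the diets they went from 985 and 1564 to 1900 and 2153 with DESeq2 and 3290 and 3639 with limma-voom. For the difference of diet effects the 77 and 8 became 255 and 107 with no filter, 64 and 20 with the replicate block and 137 and 5 with epithelial gene scaling. Low depth limits Wnt9a (0 to 40 counts per library) and Ascl2 (0 to 97). The cause of these changes was not tested.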
